A study of Mus musculus with 8 samples.

Results

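Glucocorticoid receptor (GR) binding was examined around 9 genes of growth arrest and DNA damage response in mouse liver. They were the cyclin-dependent kinase inhibitors Cdkn1a and Cdkn1b, the GADD45 genes Gadd45a, Gadd45b and Gadd45g, the cyclins Ccng2 and Ccnd1, and the BTG genes Btg1 and Btg2. The genes were chosen by name, with earlier results of these data known. Overlapping peaks of the 6 GR lists were merged into sites, and a site belonged to a gene when its centre lay within 50 kb of the gene start. This gave 84 of the 51431 GR sites, of which 63 were nearer to the start of their own gene than to that of any other protein-coding gene. The samples were livers of adult male C57BL/6J mice, collected at ZT12, when the lights went off. Control mice (ctrl.) had food only at night during the final week. Calorically restricted mice (cal. res.) had a gradually reduced ration, given at lights-off. The third group (CORT) ate as ctrl. did and received daily corticosterone injections during the last week. The paper describes these under a separate protocol, given into the abdomen in ethanol and oil after adaptation to handling. The titles of the ctrl. libraries name no vehicle, and no title gives an age. A difference of CORT from ctrl. thus cannot be told apart from injection, vehicle, handling or age. Each group had 2 GR ChIP-seq libraries, and 2 FOXO1 libraries of cal. res. livers had been merged into 1 peak list, which has no replicate spread. Chromatin came from liver tissue, which holds other cells beside hepatocytes. The study describes the libraries of a group as biological replicates.

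GR is a nuclear receptor that moves to chromatin when corticosterone binds it. It contacts palindromic DNA elements as a dimer and also sits at sites occupied by other factors. FOXO1 is a forkhead factor that insulin signalling keeps out of the nucleus, and it is known to drive cell cycle inhibitors and stress genes, among them Cdkn1a, Cdkn1b, Gadd45a and Ccng2. The kinase inhibitors, the GADD45 proteins and the BTG proteins restrain proliferation, whereas cyclin D1, the product of Ccnd1, promotes the passage through G1.

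Sequences around the summits of 5 sites are shown first, because the comparisons of the libraries turn on these sites. Each run has 200 bases, was read from the RefSeq GRCm38 genome on the plus strand at mm10 coordinates, and is centred on the summit of the library with the highest percentile. Capitals mark matches to 5 motifs searched on both strands: a palindromic GR element (GNACA and TGTNC separated by any 3 bases), the GR half-site AGAACA, the FOX motif GTAAACA, the STAT motif TTCNNNGAA and the C/EBP motif TTGCNNAA. The first 2 runs hold a palindromic GR element, the third holds 3 half-sites over both strands, the fourth lies just downstream of Gadd45g and holds 2 STAT matches, and the fifth is a promoter with a FOX match.
Cdkn1a intron, 3.7 kb downstream of the start, chr17:29094558-29094757: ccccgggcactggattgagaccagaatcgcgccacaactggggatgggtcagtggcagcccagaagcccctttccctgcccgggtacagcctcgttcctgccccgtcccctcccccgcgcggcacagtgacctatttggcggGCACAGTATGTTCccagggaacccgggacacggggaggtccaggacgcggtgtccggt
Gng7 intron, 32.8 kb downstream of the Gadd45b start, chr10:80962253-80962452: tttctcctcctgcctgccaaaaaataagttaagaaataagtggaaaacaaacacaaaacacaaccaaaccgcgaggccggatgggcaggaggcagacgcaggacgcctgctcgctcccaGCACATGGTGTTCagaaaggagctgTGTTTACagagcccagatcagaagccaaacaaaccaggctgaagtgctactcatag
Intergenic, 19.6 kb downstream of the Gadd45g start, chr13:51866175-51866374: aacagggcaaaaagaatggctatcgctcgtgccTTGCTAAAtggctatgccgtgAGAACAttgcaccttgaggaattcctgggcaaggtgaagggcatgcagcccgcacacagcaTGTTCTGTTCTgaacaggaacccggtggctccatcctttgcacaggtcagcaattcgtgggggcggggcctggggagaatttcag
Site over Gadd45g, chr13:51849304-51849503: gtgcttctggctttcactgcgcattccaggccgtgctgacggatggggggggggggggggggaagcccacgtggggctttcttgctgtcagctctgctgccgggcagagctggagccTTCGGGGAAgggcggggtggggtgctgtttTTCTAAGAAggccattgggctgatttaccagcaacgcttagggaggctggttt
Btg1 promoter, chr10:96616739-96616938: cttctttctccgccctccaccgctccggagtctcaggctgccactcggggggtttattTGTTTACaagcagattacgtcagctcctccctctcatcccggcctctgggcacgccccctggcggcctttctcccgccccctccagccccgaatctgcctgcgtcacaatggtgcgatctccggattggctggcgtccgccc

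The 6 GR lists differed in length, and the ctrl. lists differed most. After rows with the same boundaries were joined, ctrl. 1 had 36234 regions and ctrl. 2 had 12458, against 18747 to 39136 in the other libraries. The names of the libraries follow 2 styles, with ctrl. 2 and both cal. res. libraries in one and ctrl. 1 and both CORT libraries in the other. The labels do not say what the style means, and a difference between cal. res. and CORT cannot be told apart from it. Reads were not analysed here, and the depth of each library is not given in the sources used here. Fold enrichment, the ratio of a peak to its local background, was therefore compared as its percentile within its own list, with 0 for the weakest and 100 for the strongest region. A longer list holds more weak regions, which moves the percentile of a given peak upward, so the rank from the top (1 for the strongest region, with ties given their mean rank) is set beside it where it matters. A group held a site when a peak was found there in each of its libraries. With 2 libraries against 2, the exact permutation test cannot give a two-sided p below 0.333, so no single site could pass 0.05, and differences are described by whether the libraries of the groups overlap.

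All 9 genes had a site held by each of the 3 groups. Over all 21938 protein-coding genes, 48.6% had a ctrl. site within 50 kb, 47.2% a cal. res. site and 60.9% a CORT site. All genes were counted here and below without regard to their expression in liver, whereas the members were a chosen set. A site with a peak in all 6 lists lay at 9 of 9 genes, against 37.9% of all genes. The median number of sites was 8 per member gene and 3 over all genes. Cdkn1a had 15 sites, Gadd45b 14, Gadd45g 13 and Btg2 10, while Cdkn1b had 3. Single libraries had a peak at 53 (ctrl. 1), 23 (ctrl. 2), 45 and 37 (cal. res.) and 54 and 72 (CORT) of the 84 sites. The short ctrl. 2 list had 1 site at each of Cdkn1a, Gadd45b, Gadd45g and Btg1, where ctrl. 1 had 10, 10, 4 and 5.

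**Figure D1:**
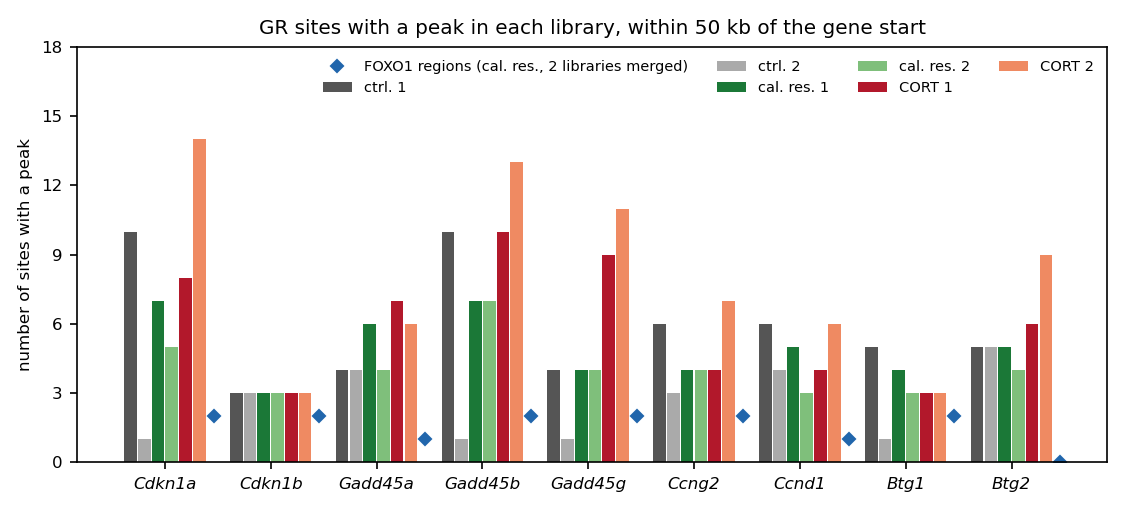
Bars give, for each gene, the number of GR sites within 50 kb of its start at which a library had a peak, and diamonds give the number of FOXO1 regions. The CORT 2 bars reach 14 at Cdkn1a and 13 at Gadd45b, ctrl. 2 stands at 1 for 4 of the genes, and all 6 bars of Cdkn1b are at 3.

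The ctrl. group held 22 of the 84 sites, cal. res. 34 and CORT 47, and over all sites the shares were 21.4%, 27.9% and 43.7%. Of the held sites, 18 were held by all 3 groups, 15 by cal. res. and CORT, and 11 by CORT alone. A further 3 were held by ctrl. and CORT, and 1 by ctrl. and cal. res. No site was held by cal. res. alone. Over all sites, 15.7% had a peak in all 6 lists. The shares of the other combinations over all sites were not counted, so those counts are not read as a trait of these genes. Sites held by cal. res. but not by ctrl. numbered 15 (11.5% of all sites were of this kind), and those held by CORT but not by ctrl. numbered 26 (24.3% of all sites). All 15 of the former had a peak in ctrl. 1 and none had one in ctrl. 2. Of the 26, 20 had a peak in ctrl. 1 and none in ctrl. 2. Without ctrl. 2, the gains fell to 0 in cal. res. and 6 in CORT. Each list was also shortened to its 12458 regions with the highest -log10 p. Then ctrl. held 15, cal. res. 22 and CORT 23 of the 47 remaining sites, where the shares over all sites were 36%, 42.5% and 42.2%. With the full lists, no group held the other 36 of the 84 sites. Of these, 23 had a peak in 1 library only, 17 of them in CORT 2.

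The member site that ranked highest in both ctrl. and both cal. res. lists lay in an intron of Cdkn1a (chr17:29090976-29100727), which encodes the kinase inhibitor p21. It spans chr17:29093482-29095825, with its centre 3.7 kb downstream of the start. Fold enrichment was 42.2 and 13.4 in ctrl., 81.2 in both cal. res. libraries, then 68.1 and 122 for CORT. The corresponding percentiles were 99.5 and 97.2, 99.7 and 99.9, and 99.8 and 99.9. By rank the site stood at 166.5 and 351 for ctrl., at 59 and 26 for cal. res., then at 58 and 30 for CORT. Both cal. res. and both CORT libraries thus lay above both ctrl. libraries by percentile and by rank, and cal. res. and CORT overlapped with each other. The strongest summits of the 6 lists fell within 62 bp. The palindromic GR element in the first printed sequence lies 42 to 54 bp from the CORT 2 summit.

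The 14 other Cdkn1a sites lay far from its start, and 12 of them were nearer to the starts of Srsf3 or Rab44. A site 44.8 kb upstream was held by cal. res. (percentiles 90.3 and 92.2) and CORT (86.3 and 87.2), had 86.4 in ctrl. 1 and no peak in ctrl. 2. A site 12.3 kb upstream, in an exon of the long noncoding RNA gene Trp53cor1, had 80.6 for ctrl. 1, 63.6 and 28 for cal. res., then 53.4 and 80 for CORT. Levels there did not separate the groups. Only CORT had peaks 40.8 kb upstream, with percentiles of 23.3 and 47.4.

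Cdkn1b (chr6:134920401-134925513), which encodes the kinase inhibitor p27, had few sites, and all 3 had peaks in all 6 lists. At its promoter (chr6:134919941-134921465) the percentiles were 90.7 and 84.6 for ctrl., 71.6 and 65.5 for cal. res., then 89.8 and 83.5 for CORT. Both cal. res. libraries were below the other 4 by percentile. By rank the cal. res. libraries (6452.5 and 6463) were below ctrl. (3388 and 1915) and next to CORT 2 (6456). At the site 8.3 kb downstream the percentiles were 73.2 and 47.4 for ctrl., 44.4 and 13.8 for cal. res., then 86.8 and 86.6 for CORT. There the order cal. res., ctrl., CORT had no overlap, and it was the same by rank. The difference of cal. res. from ctrl. was -31.19 percentile points and that of CORT from ctrl. was 26.39. The third site, in an intron of Gpr19 22 kb upstream, had 56.4 and 17.2 for ctrl., 17.4 and 18.1 for cal. res., then 39.1 and 71.8 for CORT.

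The GADD45 genes encode small nuclear proteins that bind p21 and PCNA and activate stress kinases. Gadd45g (chr13:51846678-51848468) had the largest percentile difference of CORT from ctrl. The site over the gene body (chr13:51844724-51850975) had fold enrichments of 5.56 and 4.49 for ctrl., 4.55 and 3.84 for cal. res., then 23.8 and 27.5 for CORT. Its percentiles were 47.8 and 48.7, 30.1 and 23.6, and 95.9 and 97.1. CORT lay 48.2 percentile points above ctrl., the largest difference among the 18 sites with a peak in all lists. By rank CORT (1223.5 and 1142.5) was also above all other libraries, while cal. res. (15878 and 14321.5) lay between the ctrl. libraries (18926 and 6395.5). In CORT the site was 1 region of 6252 bp in the first library and 5358 bp in the second, extending from upstream of the start to beyond the gene end. In ctrl. 1 it was 1 region of 1954 bp and in ctrl. 2 one of 801 bp, and in cal. res. it was split into 5 and 3 regions, none longer than 740 bp. The CORT summits lay 2.79 and 2.73 kb downstream of the start. The strongest region had its summit at -0.228 and 0.939 kb for ctrl. and at 2.79 and -0.092 kb for cal. res. The replicates of both groups thus differed. The ctrl. regions ended 1.57 and 1.62 kb downstream, short of the CORT summits, where both cal. res. libraries had a region. The differences given for this site thus compare different peaks within 1 merged site.

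**Figure D2:**
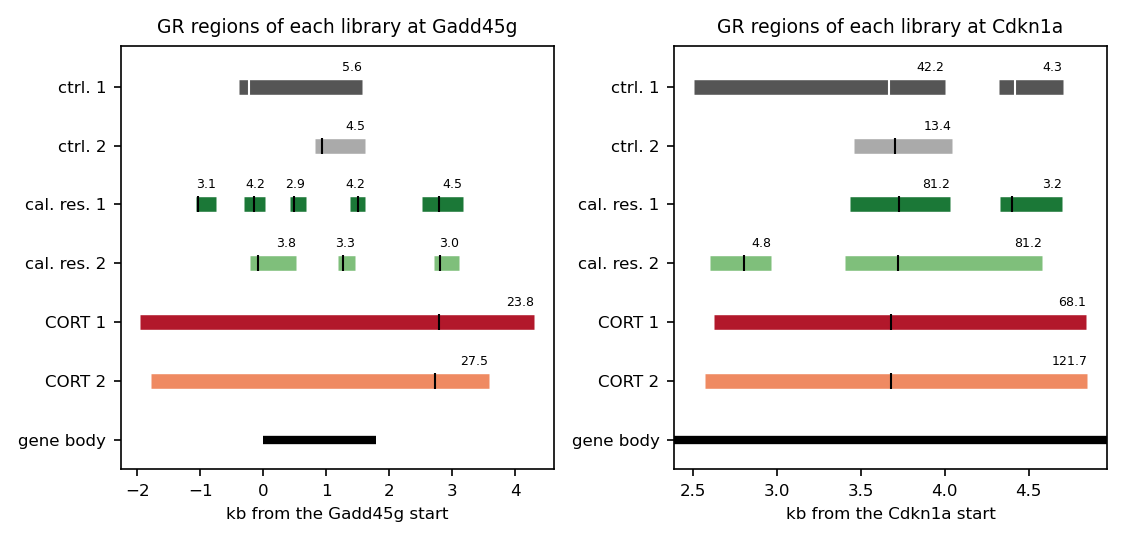
Horizontal bars are the GR regions of each library at the site over Gadd45g (left) and at the intronic site of Cdkn1a (right), against the distance from the gene start in kb; ticks mark summits and the small numbers give fold enrichment. At Gadd45g the CORT regions of 6252 and 5358 bp cover the whole gene body, whereas at Cdkn1a the strongest summits of the 6 libraries fall within 62 bp.

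A second strong site of Gadd45g lay in intergenic DNA 19.6 kb downstream (chr13:51865542-51867057). It is described although the rule for naming sites did not select it, and it was chosen after its values were seen. Fold enrichment was 9.63 for ctrl. 1, 14.5 and 23.7 for cal. res., then 90.7 and 138 for CORT, with no peak in ctrl. 2. By rank it stood at 7244 for ctrl. 1, at 2185 and 458 for cal. res., then at 28 and 23 for CORT. The groups did not overlap in this order, in which ctrl. had 1 value. The site 24.7 kb downstream had percentiles of 74.7 for ctrl. 1, 71.2 and 67.3 for cal. res., then 86.7 and 92 for CORT. The site 26.2 kb downstream had 54.8 for ctrl. 1, 61.4 and 50.8 for cal. res., then 94.2 and 96.3 for CORT. At both, the CORT libraries were above all others and ctrl. 2 had no peak. CORT held 3 Gadd45g sites that had no peak in any ctrl. library, at 7.4, 10.7 and 22.1 kb downstream. The middle one had fold enrichments of 29.3 in CORT 1 and 6.43 in CORT 2, so the CORT libraries differed widely. With lists of equal length CORT held 4 sites at Gadd45g, cal. res. 3 and ctrl. 0. The 4 were the sites over the gene and 19.6, 24.7 and 26.2 kb downstream, and each of the 3 sites without a ctrl. peak then had a peak in 1 CORT library only.

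**Figure D3:**
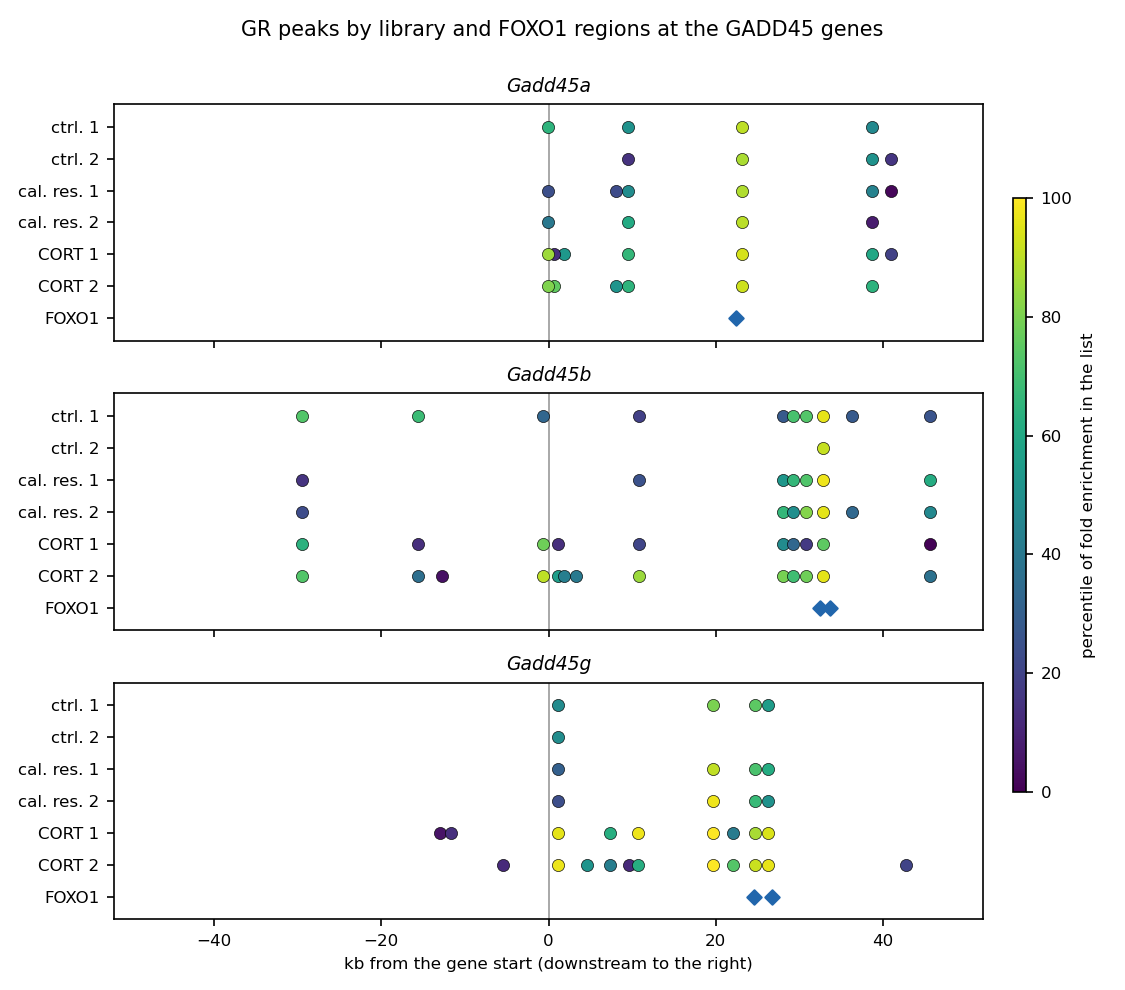
Each point is a GR site with a peak in the library of that row, placed by the distance of the site centre from the gene start in kb and coloured by the percentile of its fold enrichment within the list; diamonds are FOXO1 regions. At Gadd45g the CORT rows hold 9 and 11 points and the ctrl. 2 row holds 1, and at Gadd45b the column of 6 points lies 32.8 kb downstream.

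At Gadd45b (chr10:80930073-80932204) the site with a peak in every list lay 32.8 kb downstream, in an intron of Gng7 (chr10:80961679-80964136). Fold enrichment there was 19.7 and 8.34 for ctrl., 27.2 and 18.1 for cal. res., then 10.2 and 23.7 for CORT. Percentiles were 96.2 and 91.2, 97.3 and 96, and 75.3 and 96. The CORT libraries differed from each other, and by percentile ctrl. overlapped with both other groups. By rank cal. res. (605 and 751) was above ctrl. (1390.5 and 1097.5) and CORT (7287.5 and 1571) was below ctrl. The strongest summits of the 6 lists lay within 30 bp of each other, where the median spread over the 18 sites with a peak in all lists was 215 bp. Both cal. res. libraries had a second region in the site, with its summit 33.7 kb downstream. The palindromic GR element of the second printed sequence lies 19 to 31 bp from the strongest cal. res. 1 summit. The FOX match lies 44 to 50 bp from it. The promoter of Gadd45b had percentiles of 77.9 and 90 in CORT and 32.5 in ctrl. 1, with no peak in ctrl. 2 or in either cal. res. library. An intronic site 1.2 kb downstream was held by CORT (13.5 and 55.8) and had no ctrl. peak.

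Gadd45a (chr6:67035096-67037457, minus strand) had 8 sites. The one with the highest mean percentile lay 23.2 kb downstream in an intron of Gng12 (chr6:67013185-67015342), with percentiles of 90 and 87.4 for ctrl., 87.9 and 89.6 for cal. res., then 93.5 and 92.4 for CORT. The ctrl. and cal. res. libraries overlapped there. CORT lay 4.24 points above ctrl. without overlap by percentile, and overlapped with ctrl. by rank. At the promoter CORT had 85.3 and 80.5, ctrl. 1 had 64.6, cal. res. had 24.2 and 39.9, and ctrl. 2 had no peak. The site 9.5 kb downstream had 51.1 and 14.8 for ctrl., 48.1 and 60.7 for cal. res., then 66 and 64.8 for CORT. The site 38.7 kb downstream had 47.1 and 50.7, 44.5 and 7.45, and 59.6 and 64.2 in the same order. The separation of CORT from ctrl. at the last pair of sites was seen by percentile and not by rank. CORT also had peaks in the coding exon 0.7 kb downstream, with percentiles of 13.5 and 75.7, where no other library had one.

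Ccng2 (chr5:93267257-93276231) encodes cyclin G2, an atypical cyclin linked to cell cycle arrest. At its promoter the percentiles were 90.3 and 65.8 in ctrl., 68.5 and 75.3 in CORT, and 28.5 in cal. res. 1 with no peak in cal. res. 2. The site 38.3 kb downstream (chr5:93305257-93305843) had 94 and 30 for ctrl., 93.7 and 89.4 for cal. res., then 94.5 and 90.8 for CORT. The low value was that of ctrl. 2, and the other 5 libraries lay between 89.4 and 94.5. Without ctrl. 2 the percentile differences from ctrl. became -2.51 for cal. res. and -1.36 for CORT. By rank, however, both cal. res. libraries were above both ctrl. libraries, and CORT overlapped with ctrl. With lists of equal length the percentiles were 82.6 and 30 for ctrl., 88.5 and 84 for cal. res., then 87 and 71.2 for CORT. The direction of cal. res. against ctrl. 1 thus depended on the measure.

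Ccnd1 (chr7:144929931-144939925, minus strand) is the gene of the group whose product promotes the cell cycle. Its strongest site lay 10.4 kb downstream of the start (chr7:144928899-144930097), across the end of the gene and of the neighbouring LTO1. Percentiles were 97.9 and 74.6 for ctrl., 93 and 89.3 for cal. res., then 94.4 and 97.1 for CORT. Both CORT libraries lay above both cal. res. libraries, and ctrl. overlapped with both groups. At Ccnd1 the ctrl. group held 4 sites, against 3 in either of the other groups, and neither held a site that ctrl. did not. The site 6.4 kb downstream, in an intron of Ccnd1, was held by ctrl. (56.8 and 65.2) and cal. res. (58.9 and 40.9) and had a peak in CORT 2 only (75.6) of the CORT libraries. The promoter had a single peak, in CORT 2, at percentile 36.2.

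The BTG proteins bind the deadenylase complex that shortens mRNA tails and slow proliferation. The promoter site of Btg1 (chr10:96616419-96617513, at the start of chr10:96617006-96622809) had percentiles of 57.5 and 43.8 for ctrl., 54.3 and 8.64 for cal. res., then 83 and 89.5 for CORT. CORT stood 35.61 points above ctrl. and was above the other 4 libraries by percentile and by rank, at 5015 and 4110. The cal. res. libraries differed from each other by more than their mean differed from that of ctrl., with ranks of 10379.5 and 17127.5 against 15400.5 and 7006 in ctrl. The only other Btg1 site held by a group lay 37.3 kb downstream, where cal. res. had 52.9 and 80.3 and CORT 23.3 and 55.8. Btg2 (chr1:134075170-134079120, minus strand) had 4 sites with a peak in all lists, the most of any gene in the group. Its promoter site (chr1:134077897-134079604) had 83.1 and 65.5 for ctrl., 86.6 and 74.2 for cal. res., then 92.9 and 72.5 for CORT, so the spread within each group exceeded the distance between the groups.

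**Figure D4:**
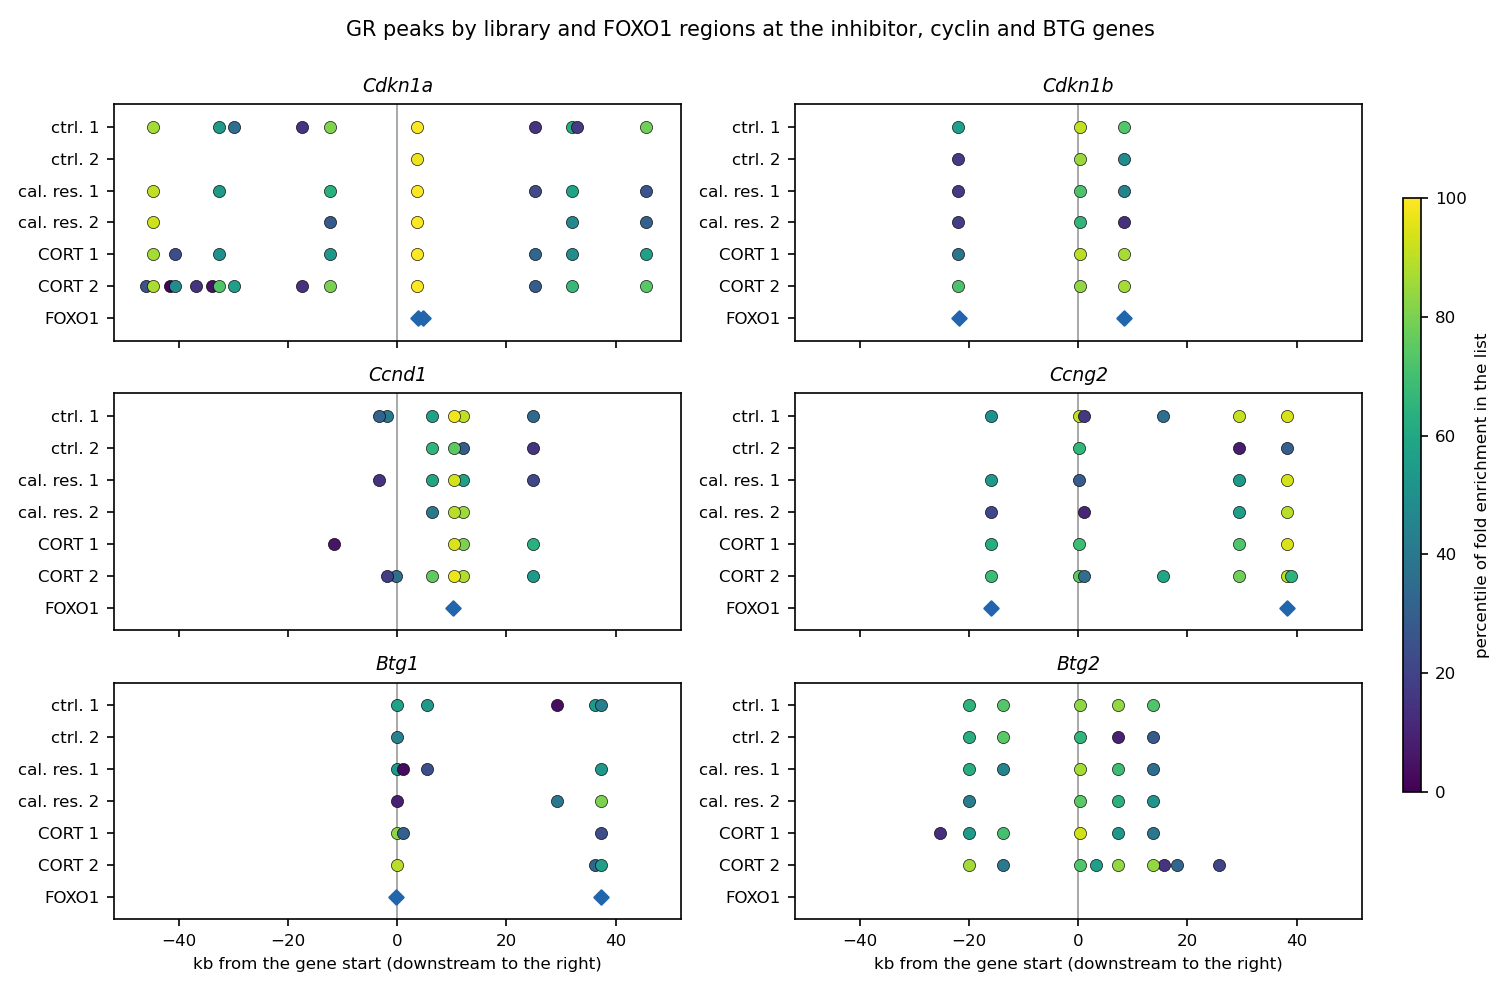
Points and colours are as in the map of the GADD45 genes, for Cdkn1a, Cdkn1b, Ccnd1, Ccng2, Btg1 and Btg2, with the distance from the gene start in kb on the horizontal axis. The column of 6 bright points 3.7 kb downstream of the Cdkn1a start ranked highest of the 84 sites in the ctrl. and cal. res. lists, and Btg2 has no FOXO1 diamond.

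**Figure D5:**
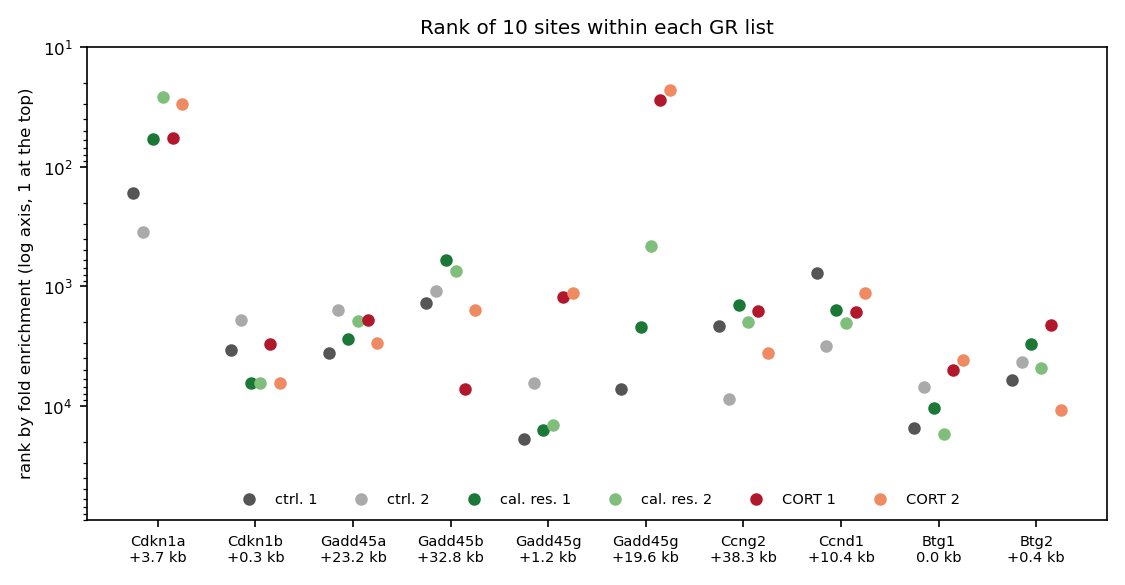
Points give the rank of 10 sites by fold enrichment within each of the 6 GR lists, on a log axis with rank 1 at the top; the labels give the gene and the distance of the site centre from its start. The CORT points of the distal Gadd45g site stand at 28 and 23, the cal. res. and CORT points of Cdkn1a between 26 and 59 and the cal. res. points of the Gadd45b site at 605 and 751.

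Over the 18 member sites with a peak in all 6 lists, both cal. res. libraries were above both ctrl. libraries at 1, the Cdkn1a intron. They were below at 4, the Cdkn1b promoter, the sites 8.3 kb downstream of Cdkn1b and 38.7 kb from Gadd45a, and the site over Gadd45g. At the last, the percentile of cal. res. 1 came from a region of the merged site where neither ctrl. list had one. Over all 8097 such sites the shares were 11.5% above and 20.6% below. CORT was above ctrl. at 7 sites and below at 0, with 26.6% and 5.2% over all sites. CORT was above cal. res. at 10 sites, with 46% over all sites, and below at 1, the Gng7 intron, with 9%, where cal. res. 2 and CORT 2 both rounded to 96. The median difference of cal. res. from ctrl. was 0.73 percentile points at the member sites and 0.14 over all sites. The medians of CORT against ctrl. were 15.8 and 7.8. The mean was higher in CORT at 16 of 18 member sites. The same share over all sites was not counted, so this is not read as a trait of these genes. CORT and cal. res. were compared with the same ctrl. libraries, so these counts are not independent. Counted by rank instead, cal. res. was above ctrl. at 3 sites and below at 2 (17.5% and 24.9% over all sites), and CORT was above at 4 and below at 1 (16.4% and 22.4%). CORT was above ctrl. by both measures at 4 sites. They were those in the Cdkn1a intron, 8.3 kb downstream of Cdkn1b, over Gadd45g and at the Btg1 promoter. Over Gadd45g the CORT summits lay outside the ctrl. regions.

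No site held by cal. res. lacked a peak in both ctrl. libraries, where 0.842% of all sites were of this kind and 2.56% of all genes had one. CORT held 6 such sites (4.28% of all sites), with 3 at Gadd45g and 1 each at Cdkn1a, Gadd45a and Gadd45b. They lay at 4 of the 9 genes, and 15.2% of all genes had such a site. None of the 6 had a peak in cal. res. either. With lists of equal length, 0 of the 6 were held by CORT.

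FOXO1 regions of cal. res. livers lay within 50 kb of 8 of the 9 genes, against 33.3% of all genes, and Btg2 had none. There were 14 such regions, and each overlapped a GR site. The FOXO1 list had 8068 regions, and the share of them on a GR site was not counted. A cal. res. site with FOXO1 lay at 8 of the 9 genes, against 25.4% of all genes. The 14 regions fell on 12 GR sites, all held by cal. res. and by CORT. Of the 12, 8 were also held by ctrl. Over all sites, 7133 overlapped FOXO1, and cal. res. held 5715 of them. Peaks at the 7133 numbered 6764 and 4490 in the ctrl. lists and 6328 and 6743 in the CORT lists. Of the 34 cal. res. sites 12 overlapped FOXO1, where the share over all cal. res. sites was 39.8%. The strongest FOXO1 region lay in the Gpr19 intron upstream of Cdkn1b, at percentile 82.2 of the FOXO1 list, and the next at the end of Ccnd1, at 80.4. At the Cdkn1a intron, where GR stood above percentile 97 in every list, the FOXO1 regions stood only at 40.3 and 48.1. At the Ccng2 site 38.3 kb downstream, where cal. res. had GR percentiles of 93.7 and 89.4, FOXO1 stood at 10.6. At these sites the order by FOXO1 was thus not the order by GR. As a set, the 12 sites had median GR percentiles of 66.3 and 73.8 in cal. res. Peaks at member sites without FOXO1 had 48.1 and 47.1. Over all sites the cal. res. medians were 78.6 and 76.5 with FOXO1, and 40.4 and 39.1 without. The 4 sites that overlapped FOXO1 and were not held by ctrl. were the 2 Gadd45g sites 24.7 and 26.2 kb downstream, the Ccng2 site 16 kb upstream and the Btg1 site 37.3 kb downstream, and all had a peak in ctrl. 1. The nearest FOXO1 and cal. res. GR summits were 1 to 123 bp apart, with a median of 17.5 bp, and the median over the 5715 cal. res. sites with FOXO1 was 20 bp.

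The palindromic GR element was found within 100 bp of the summit at 3 of the 84 sites, in the Cdkn1a intron, the Gng7 intron near Gadd45b and the Ccnd1 promoter, where only CORT 2 had a peak. Over all sites the share was 1.89%. The half-site AGAACA was found at 20 sites (18.4% over all sites), the FOX motif at 5 (5.19%), the STAT motif at 7 (8.16%) and the C/EBP motif at 10 (15.1%). Of the 12 sites that overlapped FOXO1, the FOX letters were present at the Btg1 promoter and the Gng7 intron. The windows were centred on GR summits, so FOX letters elsewhere in a FOXO1 region would be missed. At the site 23.2 kb downstream of Gadd45a the FOXO1 region lay outside the window. The share over all sites that overlap FOXO1 was not counted. The site 19.6 kb downstream of Gadd45g had 3 half-sites, of which a pair overlapped by 1 base, and 1 C/EBP match.

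A list of 24 other growth arrest and G1 genes, among them Cdkn1c, Ccng1, Ccnd2, Mdm2 and the BTG relatives Btg3, Tob1 and Tob2, was counted in the same way. Of these, 16 had a site held by ctrl., 15 by cal. res. and 20 by CORT, 14 had a FOXO1 region and 13 had a site with a peak in all 6 lists. A site held by cal. res. and not ctrl. lay at 9 of the 24 (27.1% of all genes) and at 6 of the 9 members. A site held by CORT and not ctrl. lay at 16 of the 24 (48.9% of all genes) and at 6 of the 9 members. The median number of sites was 4.5 per gene of this list.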

How the data were processed

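The authors state that BWA MEM served for alignment to mm10, that Picard and Bamtools took out duplicate and multi-mapping reads, that MACS2 called peaks per GR library, and that bedtools took out blacklisted regions. The largest deposited q-value was just under 0.1 in each GR list and 9.84e-06 in the FOXO1 list. The input control is not given in the sources used here. The fold enrichment deposited by the authors is a ratio within a library, and p-values and q-values were deposited as -log10.

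Rows with equal boundaries were joined, keeping the highest fold enrichment, and regions sharing at least 1 bp were merged into sites. A site took the highest percentile of its regions in each list. Gene starts came from GENCODE M21 basic. Named sites were those with a peak in most lists or nearest the start for each gene, the largest non-overlapping differences at shared sites, and sites absent from ctrl. The genes, lists and tests were chosen with earlier results of these data known. Motifs were searched in 200 bp around summits. Python 3.11.15, pandas 2.3.3 and SciPy 1.17.1 were used, with code tested on simulated data. Alternatives covered list length, q-value, window, overlap, rank measure and left-out libraries.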

Additional observations from a re-analysis of the deposited data

How the results depend on the processing

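No site test could pass its threshold, so stability here means the size of counts and differences. With 12458 regions per list, sites held by cal. res. numbered 22, those held by CORT 23 and gains in CORT 11, and the sites with cal. res. or CORT above ctrl. numbered 3 and 1. CORT then held 2 sites with no peak in the shortened ctrl. lists, both with a ctrl. 1 peak in the full list, and 0 of the 6 found with full lists, a count added after seeing the data. A peak in either library sufficed for 54 ctrl. and 79 CORT sites and left 2 gains in cal. res. Within 20 kb, ctrl. held 14 sites, cal. res. 16 and CORT 24, gains were 4 and 11, and 5 cal. res. sites overlapped FOXO1. At q of at most 1e-05 ctrl. held 12 sites. Assignment to the nearest start left 17 gains in CORT, the stronger 50% of FOXO1 regions left 6 overlaps, and -log10 p gave 2 sites with cal. res. above ctrl. By rank from the top, an alternative chosen after seeing the data, 3 and 4 sites had cal. res. and CORT above ctrl.

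Leaving out 1 library at a time moved the held sites to 22 to 53 (ctrl.), 34 to 45 (cal. res.) and 47 to 72 (CORT), gains to 0 to 23 and 6 to 50, and the sites above ctrl. to 1 to 12 (cal. res.) and 7 to 15 (CORT). The extremes of gains came without ctrl. 2 (0 and 6), cal. res. 2 (23) and CORT 1 (50). Over the 12 named shared sites the median difference for cal. res. ranged from -4.74, without ctrl. 2, to 2.52. For CORT it ranged from 1.62 to 19.2. Some of these sites were named for their large differences in the same percentiles, so the medians are partly set by that choice. For cal. res. against ctrl. the sign turned at Gadd45a (-1.3 to 1.34, 23.2 kb), Ccng2 (-2.51 to 61.5), Ccnd1 (-6.74 to 16.5), Btg1 (-42 to 3.66) and Btg2 (-2.73 to 14.9). For CORT it turned at the promoter of Cdkn1b (-4.14 to 2.11), at Gadd45b (-18.4 to 2.31), Ccng2 (-1.36 to 62.7), Ccnd1 (-2.12 to 21.1) and Btg2 (-1.79 to 18.6). Within one style of library names CORT against ctrl. was -1.36 at Ccng2, -2.12 at Ccnd1 and -0.447 at Btg2. At the site over Gadd45g the differences ranged from -24.6 to -18.1 for cal. res. and from 47.6 to 48.9 for CORT. The strongest peaks of the lists lay at different positions there. The groups did not overlap with ctrl. by percentile there, so leaving out 1 library could not turn the sign. By rank, cal. res. overlapped with ctrl. at that site. The cause of these shifts was not tested.

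With the replicate number as a block, the median differences over the named shared sites were 0.729 for cal. res. and 11.2 for CORT. They were the same without the block, and the exact p could not fall below 0.5. Same-numbered libraries did not deviate together (correlations -0.0468, -0.125 and 0.0737 over sites). The crossed pairing of ctrl. and CORT, added after seeing the data, gave 0 calls, as did the numbered pairing.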
